A study of Rattus norvegicus with 24 samples.

Results

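Mammary carcinomas that arose in rats irradiated after puberty were compared with carcinomas that arose without irradiation, to ask whether the methylation of CpG islands differed between them. The comparison used 14 of the 24 tissues of the series: 7 IR-7W tumors from rats given 2 Gy of whole-body gamma rays at 7 weeks of age, and 7 Spontaneous tumors from untreated rats. All were taken from female Sprague-Dawley rats that were fed a corn-oil-rich diet as adults, and no normal gland was compared with them in a test. The labels give no age for a rat when its tumor was removed. IR-7W tumors 1 and 2 came from the same rat, and the other 12 tumors from a rat each. By the study's table of tumors, all IR-7W tumors and all Spontaneous tumors but tumor 4 were estrogen receptor positive, IR-7W tumors 5 and 6 and Spontaneous tumor 4 were progesterone receptor negative, and Spontaneous tumors 4, 5 and 6 had been collected late. A tumor is bulk tissue, so a shift in methylation and a shift in the share of stromal or fat cells cannot be told apart.

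CpG islands are short stretches of DNA rich in the CpG dinucleotide, and many of them lie at the promoters of genes. In normal tissue most are free of methylation, while methylation of an island at a promoter is linked to silencing of the gene. In breast cancer, gains of methylation at islands are well known beside a loss over the rest of the genome. Each tissue was measured on 1 array with 93024 probes of 45 to 60 bp, 89403 of them on the 20 autosomes. DNA bound by a methyl-CpG binding protein carried the dye Cy5, and unenriched DNA of the same tissue carried Cy3. The log2 ratio of Cy5 over Cy3, centered on the median of its array, was taken as the methylation level, so that 0 is the middle probe of an array and 1 unit is a doubling of the enrichment. Neighboring probes at most 1000 bp apart were averaged into 13856 runs, each of which stands for an island or a cluster of islands, with a median of 6 probes. Probes and runs are given by their position on the rn4 assembly, since the files do not pair them with genes and an annotation of that assembly was not used here.

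The 14 arrays lay on 10 slides and had been scanned on 6 days. On an array of these 14 tumors, 73.0% to 91.1% of the probes stood well above background in Cy5, and 89.7% to 98.9% in Cy3. The groups were not evenly placed: only 1 slide held both, with IR-7W tumor 4 and Spontaneous tumor 5, and 3 scan days held both. Each of these days is given below by its tumors. Precision was limited by having 7 arrays a group.

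No autosomal probe passed the test between IR-7W and Spontaneous tumors. With limma, 0 of 89403 probes (0%) had an adjusted p under 0.05, and the smallest adjusted p was 0.889. The count was also 0 with the form of the methods' test, applied here to the log2 ratios, and with a test without equal variances. An unadjusted p under 0.05 was found for 3683 probes, or 4.12% of those tested, and an unadjusted p under 0.005 for 302 probes, or 0.338%. Of these, 175 were higher in IR-7W (0.196% of all probes) and 127 were lower (0.142%). The balance depended on the measure. There were 122 higher and 45 lower among the 58554 probes well above background on all 14 arrays, and 101 and 129 with scan day as a block. There were 66 and 8 on log odds, rebuilt without regard to melting temperature. These are the log ratio of a probe's tail probabilities under the methylated and the unmethylated mode fitted to its array. The groups did not overlap at 38 probes (0.0425%). At 23 of them (0.0257%) IR-7W lay above, and at 15 (0.0168%) below. The 302 probes were scattered over 260 runs, and 232 of these runs held 1 of them and no more.

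Averaging over neighboring probes gave the same count. Of 13856 runs, 0 had an adjusted p under 0.05 with limma (0%), 539 had an unadjusted p under 0.05 (3.89%) and 39 had an unadjusted p under 0.005 (0.281%). Of the 39, 27 were higher in IR-7W (0.195% of all runs) and 12 were lower (0.0866%). The split was 36 against 7 with the probes well above background, 20 against 1 on the rebuilt log odds, 34 against 24 with quantile normalization, 6 against 5 with normexp background correction, 11 against 15 with scan day as a block and 9 against 12 without the late Spontaneous tumors. Without Spontaneous tumor 1 it was 77 against 13. These other tests also called 0 runs. The IR-7W tumors all lay above the Spontaneous tumors at 2 runs (0.0144%) and all below them at 1 run (0.00722%). Among the 12724 runs of 3 or more probes, 35 had an unadjusted p under 0.005 (0.275%), and the same 2 runs (0.0157%) and 1 run (0.00786%) did not overlap.

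The differences were small at most probes and runs, and the spread between the arrays of the tumors bounds how large they could have been. The median size of a difference was 0.16 log2 units for a probe and 0.09 for a run. Only 158 probes (0.177%) differed by more than 1 unit, 107 upwards and 51 downwards in IR-7W, and 5 runs did so, all upwards. The 95% interval of the difference lay within 1 unit of 0 for 87.4% of the probes and 96.9% of the runs. The median distance from a difference to either end of its interval was 0.43 units for a probe and 0.26 for a run. These intervals are not adjusted for the number of probes or runs, and 7 tumors a group did not bring any difference, the largest included, past the adjusted threshold.

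**Figure D1:**
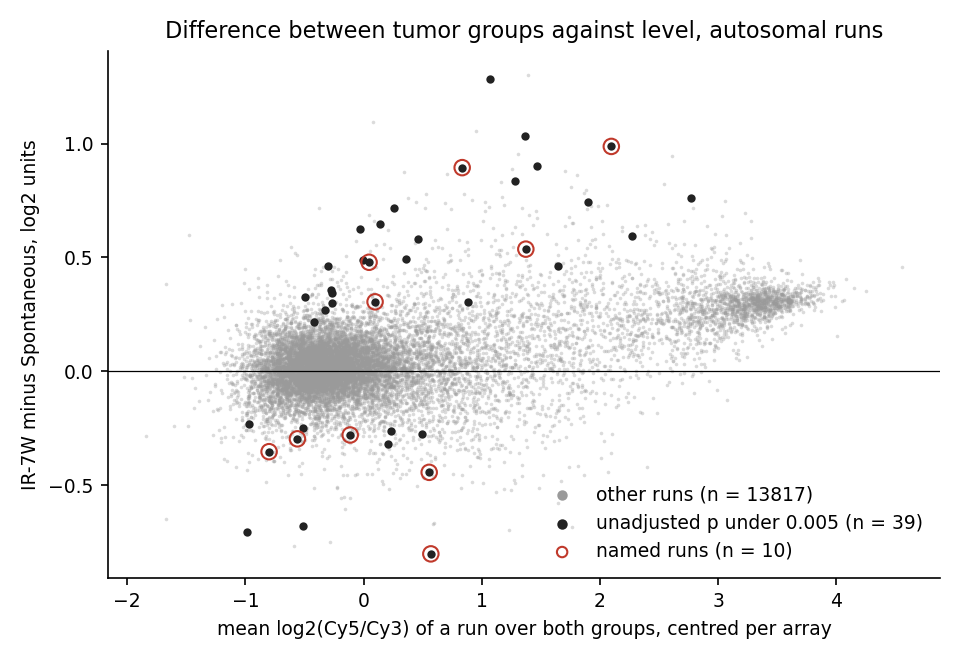
Difference between the groups (vertical axis, IR-7W minus Spontaneous, log2 units) against the mean level of a run over both groups (horizontal axis, log2 Cy5/Cy3, centered per array) for 13856 autosomal runs. The 39 runs with an unadjusted p under 0.005 are black and the 10 named runs are circled, none with an adjusted p under 0.05. The most methylated runs, at a level near 3, form a tight cloud above 0.

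The share of probes higher in IR-7W was largest among the most methylated probes, with no test between levels. The autosomal probes were split into quartiles by their mean over all 14 tumors, without regard to group. In quartile 4, the most methylated, 79.9% of the probes were higher in IR-7W, with a median difference of 0.22. In quartiles 1, 2 and 3, from the least methylated up, the shares were 49.3%, 54.7% and 52.0%. The mean of quartile 4 was 2.33 ± 0.114 in the IR-7W and 2.15 ± 0.434 in the Spontaneous tumors (SD, n = 7 each). The lowest IR-7W tumor was at 2.21, the median tumor at 2.28 and the highest at 2.55, against 1.65, 2.00 and 2.74 in Spontaneous tumors. The IR-7W tumors thus lay inside the range of the Spontaneous tumors. The difference of 0.183 (95% interval -0.199 to 0.559) did not pass a two-sided exact permutation test over the 3432 splits of the 14 arrays (p = 0.298, adjusted p over the 4 quartiles = 0.597). It turned to -0.03 with scan day as a block (exact permutation over 72 arrangements, adjusted p = 0.958). Among IR-7W tumors 5 and 6 and Spontaneous tumors 1 and 2, scanned on 1 day, it was -0.21, among IR-7W tumors 1 and 7 and Spontaneous tumor 6 it was -0.35, and among IR-7W tumor 4 and Spontaneous tumors 4, 5 and 7 it was 0.49.

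The other quartiles were close. The difference was -0.01 (95% interval -0.09 to 0.07) in quartile 1, 0.02 (-0.02 to 0.05) in quartile 2 and 0.01 (-0.06 to 0.07) in quartile 3, and no quartile had an adjusted p under 0.05 by the exact permutation test. The 5th percentile of an array, which describes its least methylated probes, was -1.37 ± 0.082 in the IR-7W and -1.36 ± 0.074 in the Spontaneous tumors (SD, n = 7 each). The 95th percentile was 3.47 ± 0.282 and 3.16 ± 0.639 (SD, n = 7 each). Its difference of 0.31 (95% interval -0.28 to 0.89) did not pass the exact permutation test (adjusted p over the 3 measures = 0.774), and it was -0.04 with scan day as a block. The interquartile range was 1.48 in IR-7W and 1.48 in Spontaneous tumors.

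The measured levels of the Spontaneous tumors were spread more widely at the most methylated islands, a difference that did not pass after adjustment. In quartile 4 the median SD of a probe between tumors was 0.617 in the Spontaneous and 0.392 in the IR-7W tumors. In the other quartiles the values lay between 0.295 and 0.393 in Spontaneous and between 0.263 and 0.368 in IR-7W tumors. Spontaneous tumors 1 and 6 were the highest of all 14 in quartile 4, and Spontaneous tumors 7 and 4, which shared a slide, were the lowest. The mean distance of a tumor from the median of its own group was 0.345 in the Spontaneous and 0.081 in the IR-7W tumors. A two-sided exact permutation test of this distance, chosen after the values had been seen, gave p = 0.0332 and an adjusted p of 0.166 over the 5 measures tested in this way. The part of slide and scan day in this spread was not tested.

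**Figure D2:**
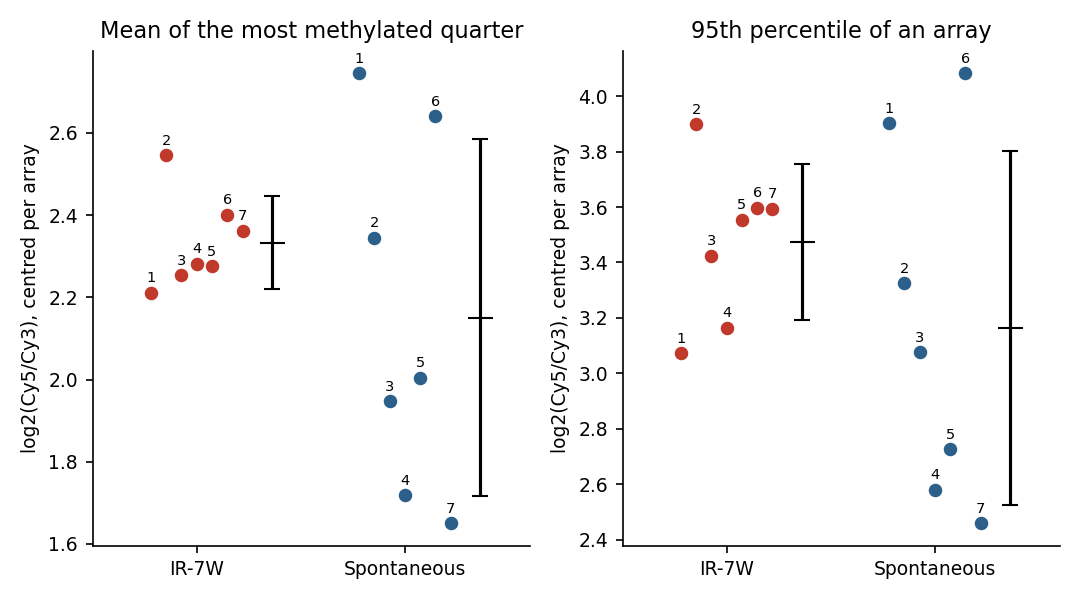
Mean log2 ratio of the most methylated quartile (quartile 4) of autosomal probes (left) and 95th percentile of the log2 ratios of an array (right), with a point for each tumor labelled by its number and the mean ± SD of the group beside it. The IR-7W tumors sit between 2.21 and 2.55 in the left panel, inside the range of 1.65 to 2.74 of the Spontaneous tumors.

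Most islands were methylated in every tumor or in none. A run of 3 or more probes was called methylated in a tumor when its mean lay above the point where the fitted methylated and unmethylated modes of that array crossed, which was 1.25 to 1.88 among the 14 tumors. Of 12724 such runs, 9693 (76.2%) were methylated in none of the 14 tumors and 1429 (11.2%) in all of them. The remaining 1602 runs (12.6%) were methylated in some tumors. Among these 1602, the number of methylated tumors in the groups differed by 1 at most for 1173. The share of methylated runs was 16.6% ± 1.91 in the IR-7W and 15.9% ± 3.04 in the Spontaneous tumors (SD, n = 7 each; exact permutation p = 0.620).

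At the 1429 runs methylated in every tumor, the mean level was 3.31 ± 0.248 in the IR-7W and 3.03 ± 0.618 in the Spontaneous tumors (SD, n = 7 each). The lowest, median and highest IR-7W tumors were at 2.97, 3.36 and 3.70, and the lowest, median and highest Spontaneous tumors at 2.34, 2.90 and 3.88. Although 99.2% of these runs were higher in IR-7W on average, they moved together within an array, and the difference of 0.286 over the arrays did not pass (exact permutation p = 0.273, adjusted p over the 3 sets of runs = 0.397). Its direction turned between scan days, with -0.12 for IR-7W tumors 5 and 6 against Spontaneous tumors 1 and 2, -0.67 for IR-7W tumors 1 and 7 against Spontaneous tumor 6, and 0.58 for IR-7W tumor 4 against Spontaneous tumors 4, 5 and 7. At the 1602 runs methylated in some tumors the levels were 1.48 ± 0.119 and 1.36 ± 0.349 (SD, n = 7 each), and at the 9693 runs methylated in none they were -0.23 ± 0.021 and -0.24 ± 0.031 (SD, n = 7 each). Both of these also had an adjusted exact permutation p of 0.397. Within the same scan days, in the same order, the difference at the 1602 runs was -0.27, -0.13 and 0.44. At the 9693 runs it was 0.011, 0.013 and 0.010.

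Runs methylated in one group and not in the other were few. In 198 runs (1.56%) at least 1 IR-7W tumor and no Spontaneous tumor was methylated, and 162 of these were methylated in a single IR-7W tumor. The reverse held for 251 runs (1.97%), 202 of them methylated in a single Spontaneous tumor. In 7 runs (0.0550%) at least 3 IR-7W tumors and no Spontaneous tumor were methylated. In 3 runs (0.0236%) at least 3 Spontaneous tumors and no IR-7W tumor were. Counts that differed by 5 or more tumors were found at 3 runs (0.0236%), all with more IR-7W tumors. These 3 runs are named because of that count, and their values are given as a description.

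A run of 5 probes at chr17:33304477-33305034 was methylated in 5 IR-7W and in 0 Spontaneous tumors. The lowest IR-7W tumor was at 0.89, the median at 1.78 and the highest at 2.56, and the Spontaneous tumors were at 0.22, 0.88 and 1.44. The 3 normal glands had a mean of 0.43. A run of 4 probes at chr16:71867801-71868217 was methylated in 7 IR-7W and 2 Spontaneous tumors, with values of 1.67, 2.30 and 2.95 against 0.66, 1.58 and 2.33. A run of 5 probes at chr1:85878988-85879430 was also methylated in 7 and 2 tumors, with values of 1.55, 2.38 and 2.50 against 1.18, 1.53 and 2.86 and a difference of 0.38. Here the count rests on the limits of single arrays, since Spontaneous tumor 6 at 1.83 was below its limit of 1.853 and IR-7W tumors 1 and 4 at 1.55 and 1.59 were above theirs of 1.357 and 1.498. The groups overlapped at all 3 runs. In the normal glands the chr16 and chr1 runs were at 2.09 and 2.81.

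**Figure D3:**
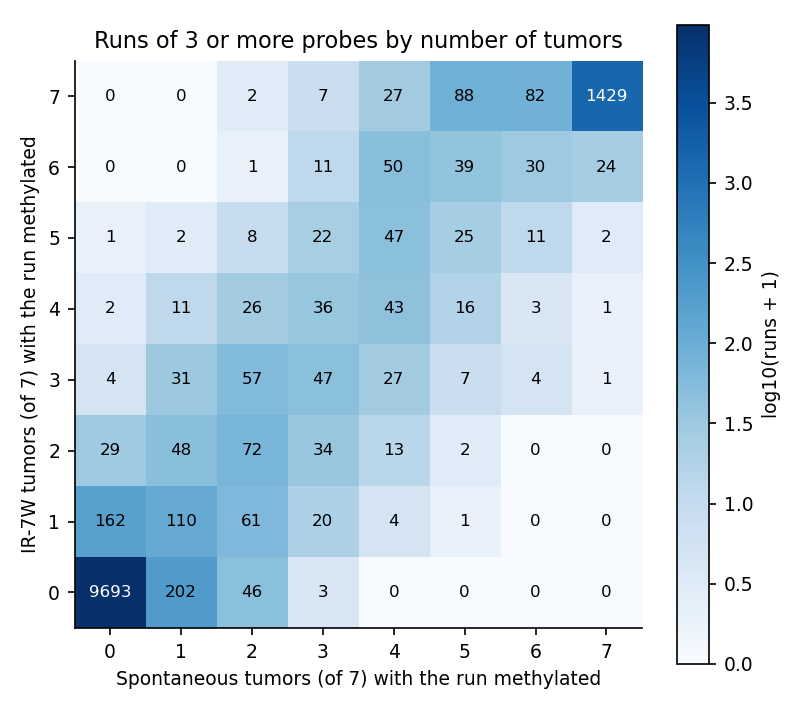
Number of runs of 3 or more probes by the number of Spontaneous tumors (horizontal axis) and of IR-7W tumors (vertical axis) in which the run was called methylated, with color on a log10 scale. The corners hold 9693 runs methylated in no tumor and 1429 methylated in all 14, and the corners that would hold runs methylated in all tumors of one group alone hold 0.

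The 5 runs of 3 or more probes with the smallest unadjusted p in each direction, 10 in all, were followed tumor by tumor. None passed the adjusted threshold, with an adjusted p of 0.890 for each (limma), so their values are given as a description. The run at chr19:25712396-25712981 held 5 probes over 586 bp, and all 5 were higher in IR-7W, by 0.84 to 1.07. The lowest IR-7W tumor was at 2.16, the median at 2.64 and the highest at 3.26. The Spontaneous tumors were at 1.14, 1.47 and 2.21. Thus 5 of the 7 IR-7W tumors lay above every Spontaneous tumor, while Spontaneous tumors 1 and 2 reached into the IR-7W range or close to it. The difference was 0.99 ± 0.19 (SE), with a 95% interval of 0.57 to 1.40. It was 0.80, 0.54 and 1.23 within the 3 scan days that held both groups. The normal glands, at 1.80 to 2.60, overlapped both groups, and the 7 IR-3W tumors, from rats irradiated at 3 weeks of age, spanned 1.51 to 4.69.

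On chr18:78873670-78874651 all 11 probes of a run of 982 bp were higher in IR-7W. The IR-7W tumors were at 1.40, 1.70 and 1.90 (lowest, median, highest) and the Spontaneous tumors at 0.88, 1.01 and 1.47. The difference was 0.54 ± 0.11 (SE), and the normal glands, at 0.43 to 0.91, lay below every IR-7W tumor. On chr12:13774483-13775109 a run of 3 probes differed by 0.89 ± 0.20 (SE). IR-7W tumors 1, 2 and 3 were close together at 1.76, 1.73 and 1.78, and the other IR-7W tumors lay between 0.53 and 1.29. The Spontaneous tumors were at 0.03, 0.45 and 0.76, so that 6 of the 7 IR-7W tumors lay above all of them.

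At chr15:33778737-33779563 the groups did not overlap, although the difference of 0.31 ± 0.07 (SE) was the smallest of the 5. Of its 7 probes, 6 were higher in IR-7W, and 3 had Cy5 well above background on all 14 arrays. The IR-7W tumors spanned 0.11 to 0.37 and the Spontaneous tumors -0.25 to 0.10, and the normal glands lay higher than either at 0.38 to 0.59. The last, at chr1:187664004-187665060, had 7 probes, all higher in IR-7W, and differed by 0.48 ± 0.12 (SE), with IR-7W tumors from 0.05 to 0.53 and Spontaneous tumors from -0.67 to 0.15.

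Among the runs that were lower in IR-7W, a run of 6 probes at chr11:32293919-32294302 had the largest difference, -0.80 ± 0.18 (SE). All 6 probes were lower. The IR-7W tumors were at -0.22, 0.16 and 0.51, and the Spontaneous tumors at 0.29, 1.11 and 1.42. Spontaneous tumors 2, 4 and 7 were at 1.40, 1.36 and 1.42, and tumors 1 and 3 lay within the IR-7W range. The normal glands, at -0.29 to 0.05, were at the level of the lower IR-7W tumors. At 3 of the 5 lower runs, those on chr11, chr8 and chr3, the mean of the normal glands lay below the means of both groups of tumors.

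The other 4 lower runs differed by less. The differences were -0.44 ± 0.11 (SE) for 4 probes at chr8:111985514-111986103, -0.35 ± 0.09 (SE) for 5 probes at chr3:155482057-155482766, -0.30 ± 0.07 (SE) for 5 probes at chr7:9421382-9421853 and -0.28 ± 0.07 (SE) for 7 probes at chr5:23738631-23739678. At each of them 5 or 6 of the 7 IR-7W tumors lay below every Spontaneous tumor. In these runs Cy5 was well above background on all 14 arrays for 2 of 4 probes (chr8), 1 of 5 (chr3), 2 of 5 (chr7) and 4 of 7 (chr5). The count was 4 of 6 probes for the chr11 run. Among the higher runs it was 3 of 7 (chr15), 4 of 7 (chr1), 2 of 3 (chr12), 5 of 5 (chr19) and 11 of 11 (chr18). The averages of all but the chr19 and chr18 runs thus hold values at background. In Cy3, which measures the unenriched DNA, the differences of the 10 runs were at most 0.246 in size. At 3 of the lower runs Cy3 ran against the ratio, higher in IR-7W by 0.246 on chr8, 0.174 on chr7 and 0.142 on chr3, and its part in these ratios was not tested. The smallest unadjusted p in Cy3 was 0.0222, for the chr7 run (limma, adjusted p = 0.875). The direction of all 10 differences held in the 35 alternative analyses, but their sizes did not, and the adjusted p (limma or the other tests named) stayed at 0.110 or above. The alternatives reused the tumors by which these runs had been picked, so the agreement in direction was largely given in advance. With normexp background correction the differences fell to 0.076 for the chr15 run, 0.13 for chr1, -0.31 for chr11, -0.13 for chr7, -0.065 for chr8 and -0.078 for chr5. With the probes well above background on all 14 arrays alone, the chr3 run was at -0.028. With slide as a block, which rests on 1 tumor against 1, the chr18 run was at 0.26 and the chr12 run at 0.27.

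**Figure D4:**
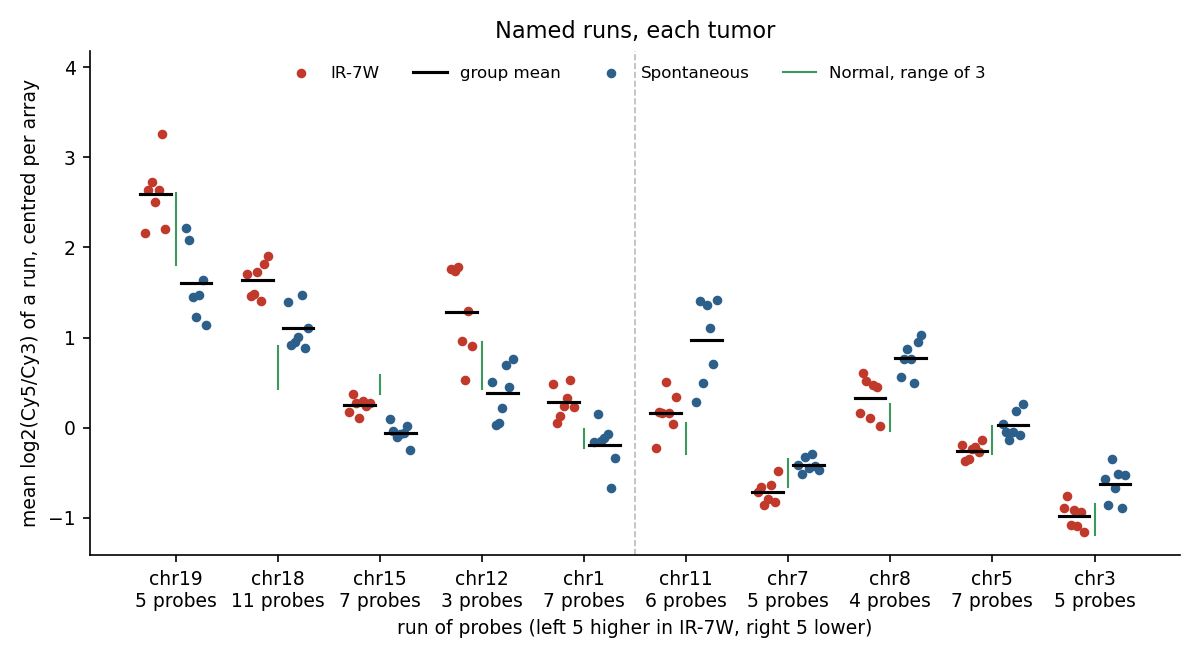
Mean log2 ratio of the 10 named runs (vertical axis, centered per array), with a point for each of the 7 IR-7W (red) and 7 Spontaneous (blue) tumors, black bars at group means and green lines over the range of the 3 normal glands. The groups overlap at every run but the one on chr15, where IR-7W tumors lie between 0.11 and 0.37 and Spontaneous tumors between -0.25 and 0.10.

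The single probes nearest to the threshold gave a similar picture. By the same rule 20 probes were named, 10 in each direction, all with an adjusted p of 0.889 (limma). For 6 of the 20 the Cy5 signal was not well above background on any array of at least 1 group, so only a bound exists there and no difference is given: A_45_P07031253, A_45_P11464127, A_45_P01001181 and A_45_P26701613 in IR-7W, A_45_P11454500 in Spontaneous tumors, and A_45_P04887112 in both. Among the other 14 probes, chosen for their small p, the groups did not overlap at 3 higher and 4 lower probes, beside 38 of all 89403 probes (0.0425%). At 3 of these the separation rests mostly on Cy5 values at background in 1 group: A_45_P21104812 in Spontaneous, and A_45_P07038989 and A_45_P20363179 in IR-7W tumors. Of the 20, 3 lay in the named runs on chr19 and chr18, A_45_P11901492, A_45_P26549758 and A_45_P26384307, and differed by 0.99, 1.03 and 0.90. For A_45_P26384307 the spot of Spontaneous tumor 1 was marked as an outlier and left out of the fit.

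Among the 14 probes measured in both groups, the largest difference was at A_45_P04277683, chr5:22751555-22751599. The lowest IR-7W tumor was at 0.33, the median at 1.86 and the highest at 2.62, and the Spontaneous tumors were at -0.63, 0.01 and 0.48. IR-7W tumors 4 and 7 were within the Spontaneous range and the other 5 lay above it. The difference was 1.58 ± 0.34 (SE), and the run of 5 probes that holds the probe differed by 0.65, 4 of its probes in that direction. At A_45_P00329766, chr1:77111950-77111994, the groups did not overlap, with IR-7W tumors from 0.55 to 1.06 and Spontaneous tumors from -0.21 to 0.39, while the normal glands were lower than both at -0.83 to -0.44. At A_45_P21104812, chr7:120401817-120401861, the groups did not overlap either, at -0.24 to 0.54 and -1.06 to -0.28, and the normal glands lay above both at 0.73 to 1.04. Of the Spontaneous tumors, 1 had a Cy5 signal well above background at this probe.

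The remaining higher probes were A_45_P22602781 on chr10, with a difference of 0.68, and A_45_P02406850 on chr2, with 0.62. The lower probes measured in both groups were A_45_P26597578 (-0.88, chr19), A_45_P25627283 (-0.86, chr17), A_45_P07038989 (-0.78, chr8), A_45_P11772700 (-0.57, chr19), A_45_P20363179 (-0.52, chr6) and A_45_P01493265 (-0.48, chr2). In IR-7W, Cy5 stood well above background on 2 of 7 arrays for A_45_P07038989 and on 3 of 7 for A_45_P20363179, so most of the lower values of these probes were at background. For all 14 probes measured in both groups the run around the probe differed in the same direction. The run's average includes the probe itself, so this direction was partly given in advance. For 6 of the 14 the run differed by less than 1 in 3 of the probe's own difference. Cy3 differed by at most 0.354 at the 20 probes, with no adjusted p under 0.05 (limma). On 2 of the scan days, where 4 and 3 of these tumors had been scanned, Cy3 passed at 7 and at 3 of the 20 named probes, beside 40.7% and 13.8% of all probes. On the first day each group was on a slide of its own, so slide and group cannot be told apart, and on the second 2 IR-7W tumors were set against 1 Spontaneous tumor, which is assumed to vary as they do.

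Each tumor was also set against the other tumors. For each of them, the runs of 3 or more probes that lay over 1.5 log2 units from the median of the other 13 tumors were counted, a limit chosen after the values had been seen. In all 244 runs exceeded this limit upwards in at least 1 tumor, and 203 of them in a single tumor. IR-7W tumor 6 had 92 such runs, Spontaneous tumor 6 had 83, Spontaneous tumor 1 had 45 and IR-7W tumor 1 had 28, while each of the other tumors had between 0 and 16. The runs of IR-7W tumor 6 lay on all 20 autosomes, 17 of them on chr1, and those of Spontaneous tumor 6 on 18. These tumors shared 12 runs. The median level of the 92 runs was 2.64 in IR-7W tumor 6 and 0.81 in the other tumors, and that of the 83 runs was 3.25 in Spontaneous tumor 6 and 1.42 in the others. The Cy3 signal of these runs differed by -0.17 and -0.12 from the other tumors at the median.

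The number of gains ranged from 2 to 92 runs a tumor in IR-7W and from 0 to 83 in Spontaneous tumors, and the difference between the groups did not pass an exact permutation test (p = 0.889). Losses were fewer. Spontaneous tumor 7 had 35 runs below the limit, IR-7W tumor 6 had 21 and Spontaneous tumor 6 had 11, and the others had at most 9. The means were 4.57 in IR-7W and 8.71 in Spontaneous tumors (exact permutation p = 0.521). The counts depended on the scale of an array. With all arrays scaled to a common median absolute deviation, IR-7W tumor 6 had 171 gains, Spontaneous tumor 6 had 117 and Spontaneous tumor 1 had 25, while IR-7W tumor 2 went from 6 to 20 and Spontaneous tumor 3 from 4 to 11.

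**Figure D5:**
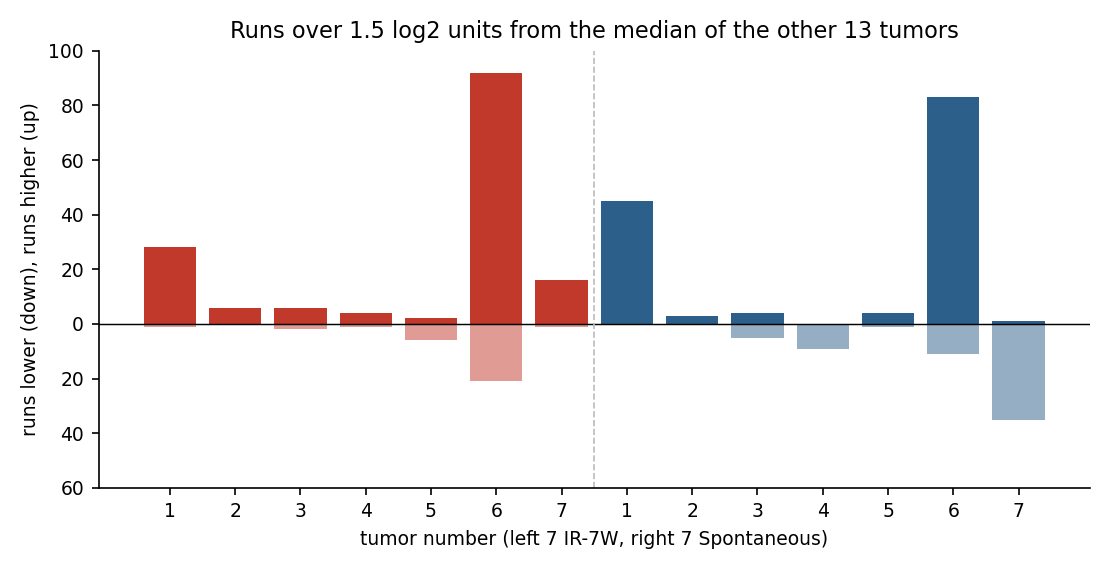
Number of runs of 3 or more probes that lay over 1.5 log2 units above (upward bars) or below (downward, pale bars) the median of the other 13 tumors, for each IR-7W (red) and Spontaneous (blue) tumor. IR-7W tumor 6 reaches 92 gains and Spontaneous tumor 6 reaches 83, and both groups also hold tumors with under 7.

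Some of these gains were at islands that lay below 0 in every other tumor of the 14. A run of 16 probes over 1819 bp at chr1:217770276-217772094 was at 2.06 in Spontaneous tumor 6, against -1.10 to -0.24 in the other 13 tumors and -0.75 to -0.46 in the normal glands. A run of 5 probes at chr18:52735163-52735630 was at 2.10 in Spontaneous tumor 1 and at -1.25 to -0.04 in the others. Its Cy3 signal was 0.36 units above the median of the others. In IR-7W tumor 7 a run of 4 probes at chr13:83596226-83596726 was at 2.07, and at -1.08 to -0.07 in the others. In IR-7W tumor 3 a run of 10 probes at chr18:3673229-3674246 was at 1.19 and at -1.40 to -0.39 in the others. That value is under the limit of 1.88 for a methylated call on its array, and Cy3 was 0.43 units below the median of the others. The largest gain of IR-7W tumor 6 was at chr6:136196519-136197047, a run of 5 probes at 3.00 against a median of -0.01 and a highest value of 1.87 in the others. Its Cy3 signal was 0.85 units below theirs. The part of copy number in the values of these runs was not tested. These runs were picked among the largest deviations of a tumor and have no test.

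Some islands were methylated in part of both groups. The run with the largest difference of all 13856, 1.30, lay at chr7:16267353-16267998 and was not among the 10 named (limma, adjusted p = 0.890). It held 5 probes, with IR-7W tumors at 1.19, 1.94 and 3.32 and Spontaneous tumors at -0.46, 0.54 and 2.85. Spontaneous tumors 1 and 5 lay within the IR-7W range, and the other 5 below it. At chr8:48817901-48818210 a run of 5 probes was between 1.79 and 3.16 in IR-7W tumors 1, 2, 3 and 6 and between -0.06 and 0.34 in IR-7W tumors 4, 5 and 7. Of the Spontaneous tumors, 2 and 3 were at 1.34 and 1.65 and the others between -0.28 and 0.44. The run that varied most over the 14 tumors, 4 probes at chr2:180123160-180123517 with an SD of 1.22, ran from -1.17 to 2.39 in IR-7W and from -0.66 to 3.02 in Spontaneous tumors, with a difference of -0.32 (limma, adjusted p = 0.943).

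The likeness of tumors within a group was close in both groups. The correlation of the autosomal log2 ratios between a pair of tumors averaged 0.899 over the 21 pairs of IR-7W tumors (0.870 to 0.935), 0.887 over the 21 pairs of Spontaneous tumors (0.850 to 0.946) and 0.893 over the pairs across groups. The difference of 0.012 between the groups did not pass (exact permutation p = 0.448). The tumor most like a given tumor was in its own group for 9 of the 14. Of the 8 tumors that shared a slide with another of the 14, 7 were most like the tumor on their own slide. The 2 IR-7W tumors of the same rat had a correlation of 0.901, within the range of the other IR-7W pairs.

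No autosome passed the test. The mean level of a chromosome was higher in IR-7W for all 20 autosomes, by 0.03 (chr13) to 0.07 (chr16), and no difference passed the exact permutation test (adjusted p over the 20 chromosomes 0.411 to 0.459). On chr16 the IR-7W tumors spanned 0.393 to 0.504 and the Spontaneous tumors 0.198 to 0.535, and on chr13 they spanned 0.131 to 0.219 and 0.034 to 0.245. The 20 values are not independent, since they come from the same 14 arrays. With scan day as a block 7 of the 20 were positive, with differences of -0.02 to 0.01.

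The Cy3 channel, which holds the DNA before enrichment, also gave 0 of 89403 autosomal probes (0%) with an adjusted p under 0.05 between the groups (limma), with 58 probes (0.0649%) at an unadjusted p under 0.005 and 2703 at an unadjusted p under 0.05. With slide as a block 6 probes passed (0.00671% of 89377), none of them a named probe, but there the difference between the groups rests on the 1 slide with both, 1 tumor against 1.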

How the data were processed

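The deposited spot intensity values came from Agilent Feature Extraction 10.7.3.1 (submitters' processing notes), with which the authors subtracted background and normalized the dyes linearly. The deposited series matrix, log2 ratios made by the authors, was an alternative. A log odds score was rebuilt as an alternative from a mixture fitted to each array, without the authors' step by melting temperature, and is not their LogOdds. The methods' test was run in its form only, on log2 ratios and with adjusted p. The authors' deposited log10 ratios came from the same signals and served to check the direction. Per array, log2 ratios of Cy5 over Cy3 processed signals were taken minus their median, and outlier spots (0 to 35 per array) were left out. Autosomal probes and runs of 7 IR-7W and 7 Spontaneous arrays were fitted with limma 3.58.1 under R 4.3.3, p-values being adjusted by Benjamini-Hochberg. Exact permutation tests (two-sided) served for single values, with 95% intervals by inversion. Python 3.11.15 was used, and steps were tested on simulated data. Named were the 10 probes and 5 runs with the smallest unadjusted p in each direction, where none passed the adjusted threshold. Members and lists were chosen with earlier results of these data known. Gene lists could not be applied without a table that pairs probes with genes. Alternatives were other measures, normalizations, filters, tests, runs, blocks and tumors left out. The p-values measure the spread between the arrays of different tumors, which also holds any spread between slides and scan days. For the runs, the estimated correlation between arrays of the same slide was 0.485. The IR-7W tumors that came from the same rat were counted as separate tumors in the reported tests. The labels do not say whether arrays were repeated.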

Additional observations from a re-analysis of the deposited data

Results flagged for a closer look

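Each value per tumor was compared with the other tumors of its group of 7 by Dixon's ratio of gap to range, against its 95% critical value. Of 121 groups of values, 8 exceeded it, and chance flags about 1 in 20. IR-7W tumor 6 stood apart with 92 runs above the limit and 21 below it, where the next IR-7W tumors had 28 and 6. Spontaneous tumor 7 stood apart with 35 runs below the limit, and the next had 11. The mean of chr9 in IR-7W tumor 2 was 0.38, and the next IR-7W tumor was at 0.31. At A_45_P02406850, IR-7W tumor 1 was at 0.80 with the next at 0.38, and Spontaneous tumor 4 was at -0.71 with the nearest at -0.36. At A_45_P11454500, IR-7W tumor 2 was at 0.47 and the next at -0.07. At A_45_P22602781, Spontaneous tumor 6 was at -0.33 and the next at -0.81.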

How the results depend on the processing

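The number of autosomal probes and runs with an adjusted p under 0.05 was 0 in every alternative run, with each tumor left out in turn included (0 to 0), and the number of autosomes that differed was 0 in each alternative with a test. The number of probes at an unadjusted p under 0.005, 302 in the reported analysis, was 68 with normexp background correction, 167 among the 58554 bright probes, those well above background on all 14 arrays, 74 on the rebuilt log odds, 191 in progesterone receptor positive tumors alone, and 925, 1696 and 458 within the scan days of IR-7W tumors 5 and 6, of IR-7W tumors 1 and 7, and of IR-7W tumor 4. It was 201 without Spontaneous tumor 7, 494 without Spontaneous tumor 1 and 589 without Spontaneous tumor 6, the range over tumors left out being 201 to 589. Runs at that p, 39 as reported, numbered 11 with normexp, 21 on the rebuilt log odds, 25 in progesterone receptor positive tumors, 21 without the late Spontaneous tumors, 22 with slide as a block and 81, 77 and 119 within the scan days. Leaving out a tumor gave 22 to 90 runs, with 62 without IR-7W tumor 4, 90, 22, 71 and 25 without Spontaneous tumors 1, 4, 6 and 7. The cause was not tested.

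Differences between the groups changed sign, those of quartile 4 and the 95th percentile included. With scan day as a block they were 0.00503 for quartile 1, -0.00294 for quartile 3, -0.0310 for quartile 4, 0.00906 for the 5th percentile and -0.044 for the 95th. With slide as a block quartile 2 was at -0.021 and the interquartile range at 0.100. With bright probes quartile 1 was at 0.013, the 5th percentile at 0.028 and the interquartile range at 0.077. With normexp quartile 2 was at -0.025 and the interquartile range at 0.022. The interquartile range was 0.00722 on the series matrix values and 0.030 in progesterone receptor positive tumors. Within the 3 scan days, in the order above, quartile 4 was at -0.207, -0.354 and 0.490, and quartile 2 at 0.073, -0.029 and -0.024. On the first day quartile 1 was at 0.073, quartile 3 at -0.101 and the interquartile range at -0.331. On the second day the 95th percentile was at -0.749. On the third day quartile 3 was at 0.085 and the interquartile range at 0.257. On the slide that held both groups quartile 1 was at -0.114, quartile 2 at -0.021 and the 5th percentile at -0.145. With each tumor left out quartiles 1 to 4 ranged from -0.024 to 0.022, 0.011 to 0.028, -0.0071 to 0.0254 and 0.099 to 0.282, the 5th percentile from -0.028 to 0.015, the interquartile range from -0.034 to 0.043, the 95th percentile from 0.190 to 0.461, and the difference in correlation from 0.004 to 0.021. No adjusted p was under 0.05 where a test was run. The values within a day or slide have no test. With slide as a block the exact permutation test has 2 arrangements and cannot give a p under 0.5.

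Of the named probes, A_45_P26384307 was at -0.0221 with slide as a block, A_45_P11464127, for which only a bound exists, was listed at 0.0557 with normexp and A_45_P25627283 was at 0.17 within the scan day of IR-7W tumors 1 and 7. Cy3 passed at 7 and 3 of the 20 named probes within the first and second of these days. Same-numbered tumors did not deviate together (correlations of -0.19 to 0.20, 1 of 7 best with its own number), and with the replicate number as a block 338 probes had an unadjusted p under 0.005 and 0 passed. The fit with all 24 arrays took its variance from the normal glands and IR-3W tumors too. The random slide block, the common scale, the distance from the group median, the calls of methylated runs and the limit for single tumors were added after the data had been seen. Dim Cy5 signals limit the least methylated probes.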
